A study of Mus musculus with 16 samples.

Results

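The 10 genes described here are Eng, Flt1, Ackr1, Cldn5, Cdh5, Pecam1, Slc2a1, Abcb1a, Bsg and Vwf, which are used as genes of blood vessel endothelium and of the blood-brain barrier. They were taken by the single gene symbol that the platform annotation gives a probe set, from 8252 gene symbols in all. Of the 12488 probe sets on the array 12 carry one of these symbols, with 2 probe sets each for Flt1 and Vwf. Each gene was tested through its brighter probe set. All 10 genes were among the 6427 probe sets tested, since these probe sets passed a filter on mean level over the arrays. Abcb1a and Cdh5 passed it because of their spastic arrays.

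Endothelial cells line every blood vessel, and in the brain and spinal cord they form the blood-brain barrier together with pericytes and the end-feet of astrocytes. Tight junctions seal the gap between neighbouring endothelial cells, so that nutrients must pass through transporters in the cell membrane, while efflux pumps return many lipophilic compounds to the blood. Growth factor receptors of the VEGF and TGF-beta families govern the growth and the maturation of these vessels. In a sample of whole tissue the level of an endothelial transcript reflects both the number of vessel cells and the RNA in each of them, and fewer cells of a type cannot be told apart from less RNA per cell.

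Spinal cord RNA of mice was hybridised to 16 single-colour arrays in 3 groups. The spastic group has 6 arrays, from 5 titled samples: a female of 6 months with 2 arrays, 2 females of 2 months, a mouse of 3 months titled male and sev, and a mouse of 3+ months titled male, for which 3 months is a lower bound. The spastic mutation is a recessive allele of Glrb, which encodes the glycine receptor's beta chain, and affected mice are stiff and tremble. The B6C3Fe group, a hybrid mouse stock, has 2 arrays of 1 sample titled male of 1 month. The control group has 8 arrays of 4 samples, a female and a male of 12 months and a female and a male of 9 months, with 2 arrays each, and the labels do not state the genotype of the controls. Age and group change together, since the control mice are titled older and the B6C3Fe mouse younger than the spastic mice, with the age of the 3+ month mouse known only as a lower bound. Arrays of 1 title were averaged. Nothing says whether they are separate animals, so p-values measure the spread between these samples, which may be technical.

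Several checks bear on the results that follow. Median intensity ranged from 289 to 384 over the arrays, and the number of arrays limits the precision. Glrb was at a log2 level of 9.92 to 11.11 on spastic arrays, 12.92 to 12.98 on B6C3Fe arrays and 12.70 to 13.30 on control arrays. The 2 spastic arrays titled male had Xist, the RNA of the inactive X chromosome, at 10.37 and 10.54 and the Y-linked gene Eif2s3y at the floor of 5.93, which is the female pattern, so their titles go against the data, and the differences of the 10 genes and the counts of the further lists in spastic minus control are given with and without these samples. Array a of the 9-month female controls stood apart, with an intensity of 3899 for the 3' probe set of 18S ribosomal RNA, against 341 to 971 on the other arrays. Transcripts that mark the spinal cord were high in all groups, with a summed log2 level over 4 of 5 listed markers (Mbp, Gfap, Snap25 and Nefl) of 15.27 to 15.92 in spastic samples, 15.62 in the B6C3Fe sample and 15.44 to 15.83 in control samples. Of 10 endothelial markers, Icam2 was at the floor on 5 of 6 spastic, both B6C3Fe and all 8 control arrays. Tie1 and Kdr were at the floor on 2 control arrays each and Tek on 1 B6C3Fe array, all 3 on 0 spastic arrays. The 6 markers described here (Eng, Cldn5, Cdh5, Flt1, Vwf and Pecam1) were above the floor on every array by the probe set tested.

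Promoter sequence was at hand for 6 of the 10 genes, from RefSeq on mouse build GRCm38.p6, as the 250 bases before the annotated start, 5′ to 3′ on the strand of the gene. They were searched on both strands for GGAAG (reverse complement CTTCC), the core that ETS factors, regulators of many endothelial genes, bind. They were also searched for ACGTG (reverse complement CACGT), 1 form of the core of the hypoxia response element. Other forms of that core, such as GCGTG, were not searched. GGAAG or its complement was in 4 of the 6 promoters (Eng, Flt1, Ackr1 and Abcb1a), against 64.1% of 32851 promoters of that length. ACGTG was in 1 of 6, that of Slc2a1, against 16.6%. Cldn5 held neither GGAAG nor ACGTG, and no promoter of the 6 held both of these. Eng and Flt1 are shown as receptor genes with GGAAG, Slc2a1 as the transporter gene with ACGTG and Cldn5 as the junction gene with neither match. Each match is in capitals. The stretches lie at chr2:32646345-32646594 on the plus strand for Eng, chr5:147726012-147726261 on the minus strand for Flt1, chr16:18776597-18776846 on the plus strand for Cldn5 and chr4:119108495-119108744 on the plus strand for Slc2a1.
Eng: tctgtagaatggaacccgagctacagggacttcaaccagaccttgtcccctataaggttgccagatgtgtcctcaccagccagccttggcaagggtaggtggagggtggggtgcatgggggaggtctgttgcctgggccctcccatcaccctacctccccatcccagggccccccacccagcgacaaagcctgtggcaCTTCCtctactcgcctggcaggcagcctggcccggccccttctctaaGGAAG
Flt1: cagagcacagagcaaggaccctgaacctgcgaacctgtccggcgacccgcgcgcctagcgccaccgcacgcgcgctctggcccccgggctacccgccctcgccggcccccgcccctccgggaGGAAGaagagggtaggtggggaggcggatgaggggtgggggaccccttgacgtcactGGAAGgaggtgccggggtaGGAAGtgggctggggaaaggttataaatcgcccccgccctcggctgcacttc
Cldn5: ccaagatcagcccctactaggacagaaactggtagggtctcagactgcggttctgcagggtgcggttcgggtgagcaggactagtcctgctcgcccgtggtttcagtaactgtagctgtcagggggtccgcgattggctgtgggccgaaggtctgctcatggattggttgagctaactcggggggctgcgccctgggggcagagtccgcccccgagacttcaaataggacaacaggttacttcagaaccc
Slc2a1: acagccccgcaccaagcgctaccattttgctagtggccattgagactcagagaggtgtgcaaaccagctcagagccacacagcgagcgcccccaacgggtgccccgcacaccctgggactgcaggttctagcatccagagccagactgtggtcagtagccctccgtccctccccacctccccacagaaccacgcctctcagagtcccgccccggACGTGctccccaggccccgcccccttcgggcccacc
A match is a description of the letters and not a binding site. The 4 genes not matched were Cdh5, Pecam1, Bsg and Vwf.

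Spastic against control cords is the main comparison of the series. Xist was high on all spastic arrays and on control arrays titled female, and at or near the floor on control arrays titled male. The sex pattern thus moved in part with this comparison, and the model corrects for sex as titled. In the fits below without the spastic samples titled male, the titles match the Xist pattern. RNA of 9 of the 10 genes, among them receptor, junction and transport genes and Vwf, was higher in spastic cords. The rise was 1.42-fold (Bsg) to 3.18-fold (Vwf), 0 genes fell, and Pecam1 did not pass the test. The 10 genes were chosen with earlier results of these data known, and Abcb1a and Cdh5 passed the filter because of their spastic arrays. This count of 9 is therefore a description and no independent support. Over all 6427 probe sets 9.83% were called higher and 9.93% lower by limma at an adjusted p under 0.05. The median log2 difference was 0.95 over the 10 genes and -0.02 over all probe sets tested. For 7 of the 10 genes every spastic array lay above every control array, which held for 3.69% of all probe sets tested. Those 7 were Eng, Ackr1, Cldn5, Slc2a1, Abcb1a, Bsg and Vwf. The count was 5 without the 2 spastic samples titled male (3% of all probe sets called higher), where Flt1, Ackr1, Cdh5 and Vwf were no longer called. It was 2, Eng and Slc2a1, among samples titled female alone (1.37% called higher), where Abcb1a (adjusted p = 0.0517), Cldn5 (adjusted p = 0.0502) and Bsg (adjusted p = 0.0743) lost their calls as well. With an RNA quality ratio, that of Pcx described further on, as a covariate it was 1, Eng (0.0467% called higher).

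**Figure D1:**
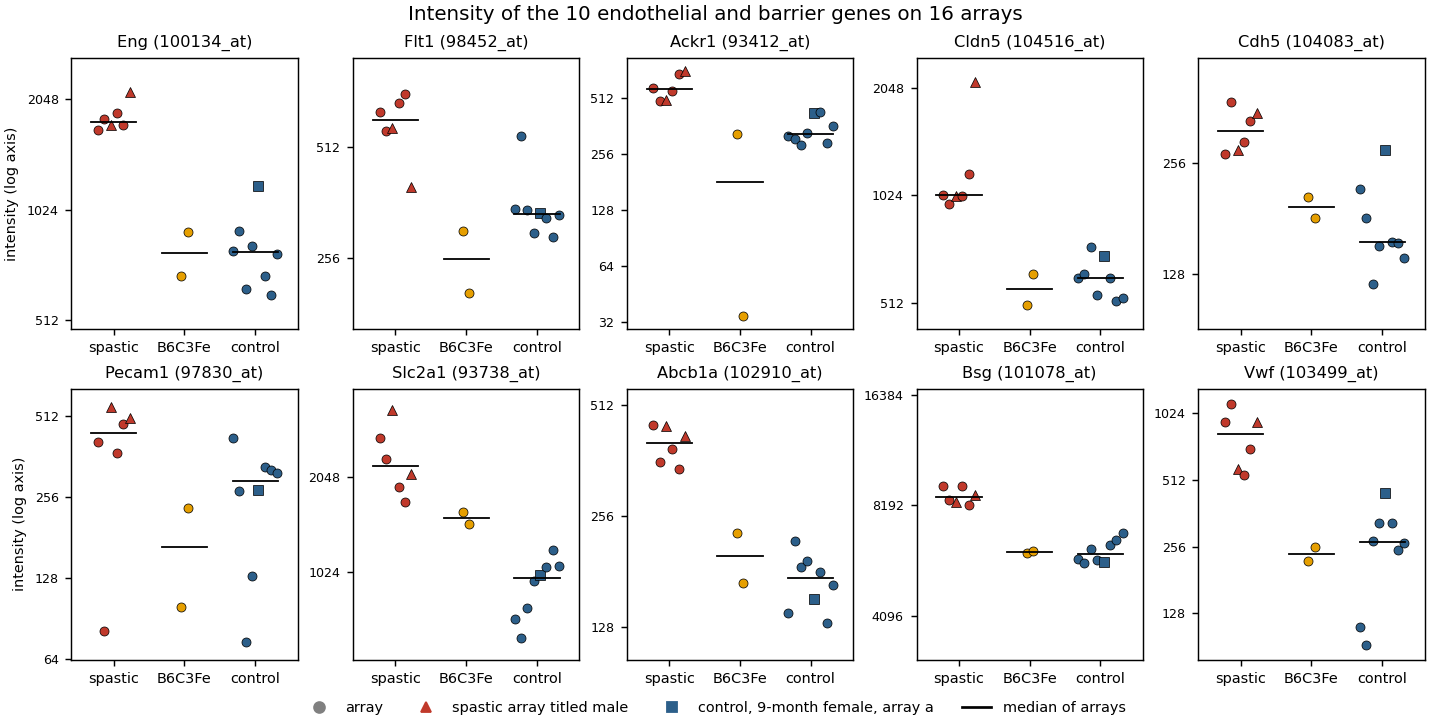
Deposited intensity (log axis, arbitrary units) of the 10 genes on each array, with spastic arrays left, B6C3Fe arrays in the middle and control arrays right, and a bar at the median of the arrays. Triangles are the spastic arrays titled male and the square is array a of the 9-month female controls. In 7 panels all 6 spastic arrays lie above all 8 control arrays, and Pecam1 overlaps most.

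Among the signalling receptors, Eng separated the groups by the widest margin relative to its error. Eng encodes endoglin, a coreceptor of endothelial cells for ligands of the TGF-beta and BMP family. Its intensity was 1688 and 1808 on the 2 arrays of the 6-month spastic sample, 1742 in the sample titled sev, 1872 and 1739 in the 2-month samples and 2143 in the 3+ month sample. On the B6C3Fe arrays it was 676 and 888, and on the 8 control arrays the lowest, median and highest values were 600.2, 784 and 1187. Every spastic array was above every other array, by 1.42 times between the lowest spastic and the highest control array, and the highest control array was array a of the 9-month female. The other control arrays ended at 893, on the 12-month female, array b. Eng averaged a log2 level of 10.85 ± 0.13 (SD, n = 5) in spastic samples and 9.60 ± 0.19 (SD, n = 4) in control samples, and rose 2.36-fold by limma's fit (log2 difference 1.24, SE 0.12, adjusted p = 0.00036). Without the 2 spastic samples titled male the difference was 1.04 (adjusted p = 0.00962).

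Flt1 is a receptor for VEGF-A on endothelium that also acts as a decoy for the ligand. By the brighter probe set its intensity was 399.6, 609 and 715 as the lowest, median and highest of the 6 spastic arrays, 303 and 206 on the B6C3Fe arrays, and 292, 337 and 551 as the lowest, median and highest of the control arrays. The groups overlapped through 1 array on each side, the 3+ month spastic array at 399.6 and array b of the 12-month female control at 551. Flt1 rose 1.63-fold (log2 difference 0.71, SE 0.16, adjusted p = 0.0122), and without the spastic samples titled male the difference was 0.79 (adjusted p = 0.0549). The dimmer Flt1 probe set read the arrays in another order: its spastic arrays ran from 214 to 999 and its control arrays from 62.4 to 576, and the 3+ month spastic array, lowest by the brighter probe set, was the highest. In a fit of every probe set without the filter the dimmer one had a log2 difference of 1.26 (SE 0.57, adjusted p = 0.224).

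Ackr1, the atypical chemokine receptor also called the Duffy antigen, is carried by the endothelium of venules, where it moves chemokines across the vessel wall. The lowest, median and highest intensities were 492, 572 and 719 on spastic arrays, against 285, 326 and 429 on control arrays. The B6C3Fe arrays read 326 and 34.5, and the second of these is under the floor of 60.9. All 6 spastic arrays were above all 8 control arrays, with the narrowest margin of the 7 separated genes, 1.15 times. Ackr1 rose 1.74-fold (log2 difference 0.80, SE 0.17, adjusted p = 0.00922). The difference was 0.69 without the spastic samples titled male (adjusted p = 0.0991). The call was also lost when arrays entered one by one with the titled sample as a random block (0.77, adjusted p = 0.0801) and with the array letter as a replicate block (0.63, adjusted p = 0.0964).

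The junction and adhesion genes Cldn5 and Cdh5 rose, and Pecam1 was too variable to call. Cldn5, the main claudin of the barrier's tight junctions, read 1025 and 967 on the arrays of the 6-month spastic sample, 1022 in the sample titled sev, 1020.2 and 1174 in the 2-month samples and 2127 in the 3+ month sample. On the B6C3Fe arrays it read 505 and 616, and on control arrays 517, 599 and 734 were the lowest, median and highest. The groups did not overlap, and 1 spastic sample stood well above the other spastic samples. Cldn5 rose 2.05-fold (log2 difference 1.04, SE 0.21, adjusted p = 0.00656), and without that sample and the other titled male the difference was 0.76 (adjusted p = 0.0333).

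Cdh5 encodes VE-cadherin, the cadherin of the endothelial adherens junction. Its lowest, median and highest intensities were 272, 313 and 374 on spastic arrays and 119.9, 156 and 279 on control arrays, with 207 and 182 on the B6C3Fe arrays. The highest control value was again array a of the 9-month female, and without that array the lowest spastic array stood 1.25 times above the highest control array. Cdh5 rose 1.81-fold (log2 difference 0.86, SE 0.19, adjusted p = 0.01), and the difference without the spastic samples titled male was 0.63 (adjusted p = 0.154). The call was also lost with only the first array of each title (0.69, adjusted p = 0.0929) and in a fit that pools B6C3Fe with the controls and adds log2 age (0.71, adjusted p = 0.0548).

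Pecam1, the adhesion molecule CD31 at the contacts of endothelial cells and on platelets and leukocytes, did not separate the groups. It read 409 and 81.6 on the 2 arrays of the 6-month spastic sample, and 373 to 553 on the other spastic arrays. The B6C3Fe arrays were at 101 and 234, and the lowest, median and highest control arrays were at 74.5, 293 and 423. In this gene 7 of the 8 control arrays were above the lowest spastic array, and 2 arrays of 1 title differed by up to 2.33 on the log2 scale. The log2 difference of spastic minus control was 0.72 (SE 0.42, adjusted p = 0.252, 95% confidence interval -0.20 to 1.64), an interval that holds both 0 and the differences of Cldn5 and Cdh5. Without the spastic samples titled male it was 0.00 (adjusted p = 0.997).

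**Figure D2:**
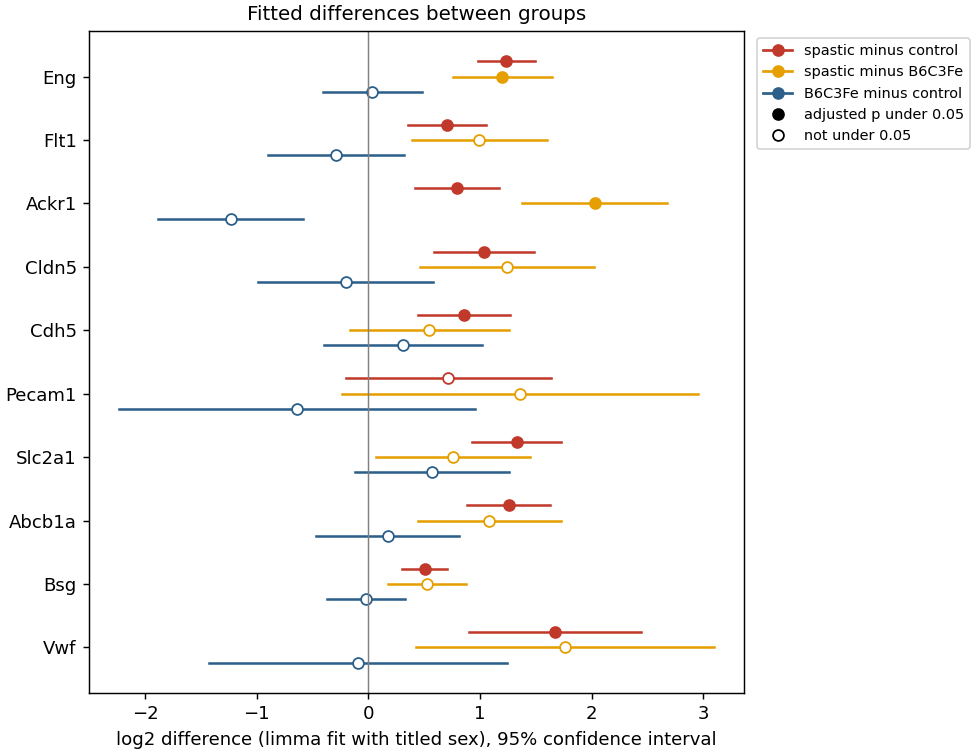
Log2 differences of the 10 genes in 3 comparisons from limma's fit, with 95% confidence intervals; filled points have an adjusted p under 0.05. Spastic minus control is filled for 9 genes, spastic minus B6C3Fe for Eng and Ackr1, and B6C3Fe minus control for none.

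Of the transport genes Slc2a1 and Abcb1a rose by more than 2-fold and Bsg by less. Slc2a1, the glucose transporter GLUT1, which carries glucose from the blood into neural tissue, read 2712 and 2341 on the arrays of the 6-month spastic sample, 3326 in the sample titled sev, 1901 and 1711 in the 2-month samples and 2094 in the 3+ month sample. The B6C3Fe arrays read 1585 and 1458. The 8 control arrays ran from 635 to 1207 with a median of 983. The 3 groups did not overlap in this gene: both B6C3Fe arrays lay above every control array and below every spastic array. Slc2a1 rose 2.51-fold in spastic relative to control cords (log2 difference 1.33, SE 0.18, adjusted p = 0.0018), and the difference was 1.26 without the spastic samples titled male (adjusted p = 0.0221).

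Abcb1a, the efflux pump P-glycoprotein of the barrier, read 345, 405 and 452 as the lowest, median and highest of the spastic arrays, 229.6 and 169 on the B6C3Fe arrays and 131, 173 and 218 as the lowest, median and highest of the control arrays. Its groups were separated by 1.58 times between the lowest spastic and the highest control array, the widest gap of the 10 genes over all arrays. When array a of the 9-month control female was left out, the gaps of Eng (1.89 times) and Vwf (1.64 times) were wider. Abcb1a rose 2.39-fold (log2 difference 1.26, SE 0.17, adjusted p = 0.00162), and by 1.15 on the log2 scale without the spastic samples titled male (adjusted p = 0.0338). Its control mean, 7.40 on the log2 scale, and that of Cdh5, 7.41, were below the filter value of 7.62, so both were tested because of their spastic arrays. Both were also called in the fit without that filter.

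Bsg encodes basigin, a membrane glycoprotein abundant on barrier endothelium and a partner of monocarboxylate transporters, and it is made by many other cell types. It read 8223, 8612 and 9274 as the lowest, median and highest of the spastic arrays, 6062 and 6167 on the B6C3Fe arrays and 5711, 6054 and 6897 as the lowest, median and highest of the control arrays. The spread within groups was small, with an SD of 0.069 in 5 spastic and 0.094 in 4 control samples on the log2 scale. Bsg rose 1.42-fold (log2 difference 0.50, SE 0.09, adjusted p = 0.00509), and the difference without the spastic samples titled male was 0.57 (adjusted p = 0.0426).

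Vwf, the von Willebrand factor, is a secreted glycoprotein that endothelial cells store and that tethers platelets. By the brighter probe set it read 932 and 1126 on the arrays of the 6-month spastic sample, 574 in the sample titled sev, 538 and 707 in the 2-month samples and 937 in the 3+ month sample. It read 221 and 254 on the B6C3Fe arrays and 92.4, 269 and 447 as the lowest, median and highest of the control arrays. The spastic arrays were all above the control arrays, which were themselves spread, with both arrays of the 12-month female at the low end (111 and 92.4) and array a of the 9-month female at the top. Vwf rose 3.18-fold (log2 difference 1.67, SE 0.35, adjusted p = 0.00867), and without the spastic samples titled male the difference was 1.89 (adjusted p = 0.0571). Without the filter on dim probe sets its adjusted p was 0.04996 (SE 0.42), and in the unfiltered fit of every probe set 0.054, where the call was lost. Its other probe set was under the floor on all 16 arrays, at 15.9 to 51.4, and measured no difference.

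Spastic against B6C3Fe cords sets the same 6 arrays against a younger mouse of 1 sample, assumed to vary like the others. Eng and Ackr1 rose, 2 of 10 genes, where 1.42% of all probe sets were called higher, and 8 of the 10 had an unadjusted p under 0.05, against 20.3% of all probe sets. For 9 genes, all but Pecam1, every spastic array lay above both B6C3Fe arrays, which held for 15.1% of all probe sets. Xist was high on all spastic arrays and not above the floor in B6C3Fe, so the sex pattern moved with this comparison, and the model corrects for sex as titled. Eng was 2.30-fold higher (log2 difference 1.20, SE 0.20, adjusted p = 0.0222), beside a difference of the measured means of 1.25. Its call was lost without the spastic sample titled sev (1.22, adjusted p = 0.0533), with only the first array of each title (1.30, adjusted p = 0.11) and without both spastic samples titled male (0.89, adjusted p = 0.217).

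Ackr1 was 4.08-fold higher in spastic than in B6C3Fe cords (log2 difference 2.03, SE 0.30, adjusted p = 0.013). This value rests on the B6C3Fe array under the floor: without it the difference was 0.82 (adjusted p = 0.136). The log2 differences of the other genes in spastic minus B6C3Fe were 1.76 for Vwf, 1.36 for Pecam1, 1.24 for Cldn5, 1.08 for Abcb1a, 0.996 for Flt1, 0.76 for Slc2a1, 0.55 for Cdh5 and 0.52 for Bsg. Their adjusted p ran from 0.0879 (Abcb1a) to 0.364 (Cdh5). The comparison shares its spastic arrays with spastic minus control, in which Slc2a1 was at 1.33 and Cdh5 at 0.86.

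B6C3Fe against control cords gave 0 calls among the 10 genes by limma, where 0.389% of all probe sets were called in either direction. An unadjusted p under 0.05 was reached by 1 of the 10 and by 15% of all probe sets. That gene was Ackr1 (log2 difference -1.23, SE 0.30, adjusted p = 0.0956), again through the array under the floor. The other array, at 326, was at the median of the control arrays. Slc2a1, whose B6C3Fe arrays were both above all controls, had a difference of 0.57 (SE 0.31, adjusted p = 0.423). Eng, at 0.04 (SE 0.20, 95% confidence interval -0.41 to 0.48), and Bsg, at -0.02 (SE 0.16, interval -0.37 to 0.33), had intervals that lie below their spastic minus control differences. The same held for Flt1, Ackr1, Cldn5, Slc2a1, Abcb1a and Vwf, but not for Cdh5 and Pecam1. The spastic minus control differences have errors of their own and share the control samples, so this is no test of spastic against B6C3Fe. The direct comparison, given above, called Eng and Ackr1 alone. The other log2 differences were 0.31 for Cdh5, 0.17 for Abcb1a, -0.09 for Vwf, -0.20 for Cldn5, -0.29 for Flt1 and -0.64 for Pecam1, and adjusted p over the 10 ran from 0.0956 to 0.967.

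Age, titled sex and titled severity gave no calls among the 10 genes. For 12 against 9 months within the controls limma called 0 of 10, where 0% of all probe sets were called, and 0 of 10 had an unadjusted p under 0.05, against 5.38% of all. Slc2a1 read 732, 635, 789 and 961 on the 12-month control arrays and 1004, 1066, 1207 and 1074 on the 9-month control arrays, which did not overlap, and its log2 difference was -0.49 (SE 0.24, adjusted p = 0.906). Vwf was at -0.84 (SE 0.48, adjusted p = 0.906), with the 12-month female far below the 12-month male. The other 12 minus 9 month log2 differences were 0.22 for Abcb1a and Flt1, 0.09 for Cldn5, -0.01 for Eng, -0.10 for Cdh5, -0.11 for Bsg, -0.26 for Ackr1 and -0.76 for Pecam1. For female against male as titled the count was 0 of 10, against 0% of all probe sets, and 1 gene had an unadjusted p under 0.05, Flt1 (0.38, SE 0.16, adjusted p = 0.798), against 6.05% of all probe sets. Both spastic samples titled male had the female pattern of Xist and Eif2s3y. Within the spastic group this comparison therefore cannot measure a difference between the sexes, and no conclusion on sex is drawn from it. The other female minus male log2 differences were 0.24 for Cdh5, 0.08 for Eng and Ackr1, -0.01 for Pecam1, -0.03 for Bsg, -0.10 for Abcb1a, -0.20 for Cldn5, -0.23 for Vwf and -0.32 for Slc2a1. For the spastic sample titled sev against the other spastic samples it was 0 of 10, against 0.0156% of all probe sets, and 0 of 10 had an unadjusted p under 0.05, against 4% of all. Slc2a1, highest in that sample, had a difference of 0.59 there (SE 0.30, adjusted p = 0.995). The others in sev minus the other spastic samples were 0.78 for Pecam1, 0.34 for Flt1, 0.17 for Abcb1a, -0.04 for Cdh5, -0.05 for Eng, -0.11 for Bsg, -0.31 for Ackr1, -0.57 for Cldn5 and -0.76 for Vwf.

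Further genes of these vessels were read from lists of their kinds. Of 13 further endothelial genes tested, 2 rose and 0 fell in spastic relative to control cords, with a median log2 difference of 0.21, beside the same 9.83% and 9.93% over all probe sets. The 2 were Ramp2, which turns the calcitonin-like receptor into an adrenomedullin receptor (0.82, SE 0.12, adjusted p = 0.00216), and Emcn, the endothelial sialomucin endomucin (0.75, SE 0.17, adjusted p = 0.0111). Without the filter on dim probe sets, 5 of 31 rose, where 5.01% of all 9840 probe sets were called higher and 5.96% lower, with Rasip1, an effector in vessel lumen formation (1.72, adjusted p = 0.00807), the orphan receptor Tie1 (1.66, adjusted p = 0.0112) and the transcription factor Sox18 (0.39, adjusted p = 0.0484) beside them. In that fit Tek, the angiopoietin receptor, was at 0.38 (adjusted p = 0.115) and Kdr, the main VEGF receptor, at 0.68 (adjusted p = 0.135). Of the 13, 1 rose without the spastic samples titled male (3% of all probe sets called higher). With the Pcx ratio as a covariate (0.0467%) and in the fit that pools B6C3Fe with the controls and adds log2 age (5.76%), 0 rose.

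Of 10 further barrier transport genes, 3 rose and 1 fell, with a median of 0.22. Over all probe sets 9.83% were called higher and 9.93% lower, for this list and the junction list alike. Slc7a5, the large neutral amino acid transporter, rose (1.12, SE 0.10, adjusted p = 0.00036), as did the scaffold Slc9a3r2 (0.71, adjusted p = 0.00809) and the efflux pump Abcg2 (0.61, adjusted p = 0.0191). Slc16a1, a monocarboxylate transporter and a partner of basigin, fell by 0.82 on the log2 scale (adjusted p = 0.0192). Without the spastic samples titled male 1 rose and 0 fell (3% of all probe sets called higher), as with the Pcx ratio (0.0467%). In the fit with log2 age 2 rose and 1 fell (5.76% called higher). Of 8 further junction genes, Lsr, the angulin of tricellular junctions, rose (1.48, adjusted p = 0.00877) and Jam3, a junctional adhesion molecule, fell (-0.57, adjusted p = 0.0496), with a median of 0.08 over the list. Without the filter Jam3 was not called (adjusted p = 0.122) and the median over 11 genes was -0.21. With the Pcx ratio 0 of 8 were called in either direction, where 9 of all 6427 probe sets were. When the spastic samples titled male were left out it was also 0 of 8, where 396 of all 6427 were called.

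Signalling lists held few calls, in both directions, with medians of 0.07 for the Wnt, -0.10 for the VEGF, 0.05 for the TGF-beta and -0.0046 for the hypoxia list and -0.06 for adhesion molecules. Beside them, 9.83% of all probe sets were called higher and 9.93% lower. Of 8 genes of the Wnt pathway that maintains the barrier, the Wnt inhibitor Apcdd1 (0.91, adjusted p = 0.00218) and the coreceptor Lrp6 (0.38, adjusted p = 0.033) rose, and Tspan12, a partner of the norrin receptor, fell (-0.75, adjusted p = 0.00839). Of 6 VEGF and angiopoietin genes, 0 rose and the coreceptor Nrp1 fell (-0.44, adjusted p = 0.0453), while Vegfa itself was at -0.86 (SE 0.35, adjusted p = 0.11). Of 12 TGF-beta and BMP genes, the BMP target Id1 rose (1.30, SE 0.18, adjusted p = 0.00185) and Id2 fell (-0.48, adjusted p = 0.0255). Of 14 hypoxia and glycolysis genes, Ddit4 rose (0.93, adjusted p = 0.0234) and Pdk1 fell (-0.69, adjusted p = 0.0229). Of 6 adhesion molecules, Cd151 rose (0.55, adjusted p = 0.0211) and Alcam fell (-1.16, adjusted p = 0.00287). Without the spastic samples titled male 1 Wnt and 1 TGF-beta gene rose and 0 fell, and 0 were called in the VEGF, hypoxia and adhesion lists. In that fit 396 of all 6427 probe sets were called, 193 of them higher. With the Pcx ratio 0 were called in any of the 5, where 9 of all 6427 probe sets were.

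**Figure D3:**
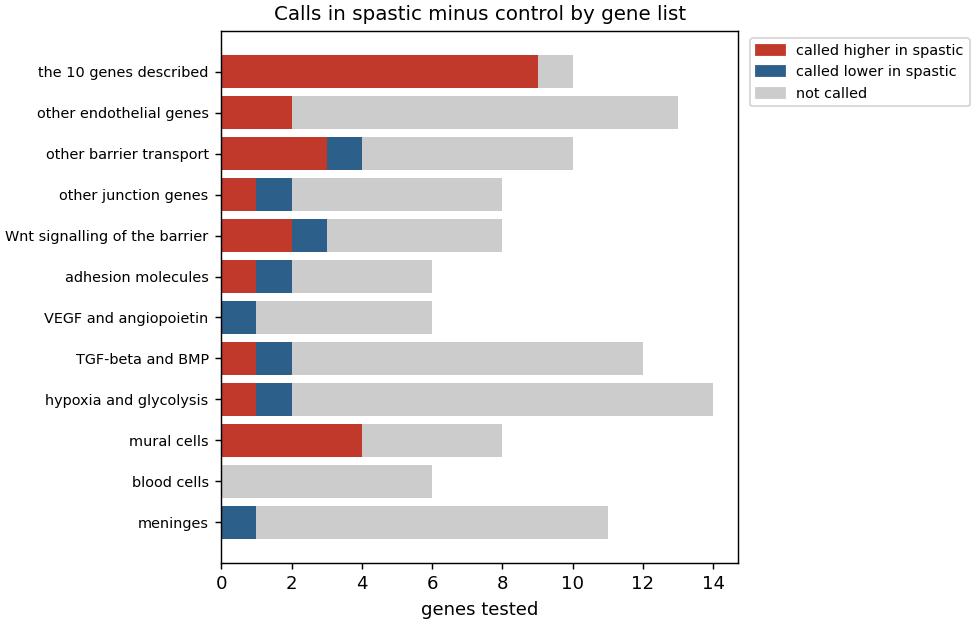
Number of genes tested (bar length) in spastic minus control for the 10 genes described and for further gene lists, split into called higher, called lower and not called by limma at an adjusted p under 0.05. The 10 genes have 9 calls higher, and every further list has 4 or fewer. Over all probe sets tested 9.83% were called higher and 9.93% lower.

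Markers of other cell types were read from whole lists, in spastic minus control, where 9.83% of all probe sets were called higher and 9.93% lower. Of 8 mural cell genes, which mark pericytes and vascular smooth muscle, 4 rose and 0 fell: the smooth muscle actin Acta2 (1.78, adjusted p = 0.000787), the receptor Notch3 (0.80, adjusted p = 0.00229), Tagln (0.71, adjusted p = 0.0182) and Vtn (0.48, adjusted p = 0.0486), with a median of 0.36. The summed log2 level of 6 mural markers was 10.88 to 11.36 in spastic samples, 10.81 in the B6C3Fe sample and 10.46 to 10.76 in control samples. By this sum spastic samples did not overlap the others. By the median log2 level of the same markers they overlapped the B6C3Fe sample: 8.03 to 8.78 in spastic, 8.22 in B6C3Fe and 7.58 to 7.86 in control samples. Of the 6 markers only Rgs5 had a lower mean log2 level in spastic (8.12) than in control samples (8.37). Of the 8 mural genes 2 rose without the spastic samples titled male (3% of all probe sets called higher), 0 with the Pcx ratio (0.0467%) and 3 in the fit with log2 age (5.76%). Without the filter 3 of 13 rose and 1 fell, beside 5.01% of all probe sets called higher and 5.96% lower. The summed log2 level of the 10 endothelial markers was 12.40 to 12.80 in spastic samples, 11.39 in the B6C3Fe sample and 11.38 to 11.67 in control samples. This sum includes Eng, Cldn5, Cdh5, Flt1, Vwf and Pecam1, so it repeats values of the genes described here and is no separate result. Of 6 blood cell genes limma called 0, with 0 at an unadjusted p under 0.05, and the nearest were S100a9 (-1.31, adjusted p = 0.172) and S100a8 (-1.05, adjusted p = 0.255). The summed log2 level of 3 red blood cell markers was 13.16 to 14.64 in spastic, 12.23 in B6C3Fe and 14.00 to 14.19 in control samples. That of 3 platelet markers was 8.05 to 8.74 in spastic, 8.70 in B6C3Fe and 8.04 to 8.84 in control samples, and that of 4 white blood cell markers was 9.70 to 13.45 in spastic, 11.75 in B6C3Fe and 11.53 to 12.75 in control samples. In all 3 lists the spastic and control samples overlapped. Of the white blood cell markers Ptprc was at the floor on 5 of 6 spastic and 0 of 8 control arrays. Of 11 meningeal genes 0 rose and Dcn fell (-0.75, adjusted p = 0.0146), and of 8 skeletal muscle genes 0 rose and Myh4 and Actn3 fell (-3.44 and -0.80, adjusted p = 0.00142 and 0.0174). The spinal cord tissue list had 2 of 13 genes higher and 3 lower: the neurofilament Nefl (-1.10, adjusted p = 0.00216), the astrocyte water channel Aqp4 (-0.82, adjusted p = 0.00593) and S100b (-0.64, adjusted p = 0.00595) fell, and the vesicular inhibitory amino acid transporter Slc32a1 (0.65, adjusted p = 0.0106) and Nefm, another neurofilament, rose (0.39 for Nefm, adjusted p = 0.0482). Without the spastic samples titled male 1 of the 13 rose and 1 fell, 0 meningeal and 0 blood cell genes were called, and 2 skeletal muscle genes fell. In that fit 396 of all 6427 probe sets were called. With the Pcx ratio 0 were called in any of these lists, where 9 of all 6427 probe sets were. The choroid and ependymal list had 1 gene tested, Foxj1 (0.23, adjusted p = 0.229). The part of these cell types in the results for the 10 genes was not tested.

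Of 4 ratios that read RNA quality, 1 had an unadjusted p under 0.05 between spastic and control samples. The ratio of 3' to 5' signal of the control probe sets for Pcx, pyruvate carboxylase, was 3.99 to 7.87 on spastic arrays, 3.72 and 3.19 on B6C3Fe arrays and 2.49 to 6.59 on control arrays. Its log2 averaged 2.38 ± 0.38 in spastic samples (SD, n = 5) and 1.73 ± 0.22 in control samples (SD, n = 4), with p = 0.0238 by a 2-sided exact permutation test whose smallest p is 0.00794. The ratios of Gapdh (exact permutation p = 0.77), Actb (p = 0.302) and Tfrc (p = 0.0635) did not pass, and over the 4 ratios tested the Benjamini-Hochberg adjusted p of Pcx was 0.0952. The log2 ratios differed in spastic minus control by 0.65 for Pcx, -0.06 for Gapdh, -0.32 for Actb and -0.67 for Tfrc. The 4 ratios thus did not move in the same direction, and Pcx alone was used as a covariate. The mean of the 10 genes on the log2 scale, centred for each gene, was 0.44 to 0.82 on spastic arrays, -0.57 and -0.41 on B6C3Fe arrays and -0.59 to -0.07 on control arrays. The highest control array was array a of the 9-month female, which also had the highest control Pcx ratio, 6.59. It was higher in that ratio than 5 of the 6 spastic arrays and lower in the mean of the 10 genes than all of them. This is 1 array, which stood apart in the checks above. Among spastic arrays the 3+ month array had both the highest ratio, 7.87, and the highest mean of the 10 genes, 0.82. The spastic array with the lowest ratio, 3.99, had a mean of 0.66, and the lowest spastic mean, 0.44, came with a ratio of 5.77. A relation between ratio and mean across the arrays was not tested.

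**Figure D4:**
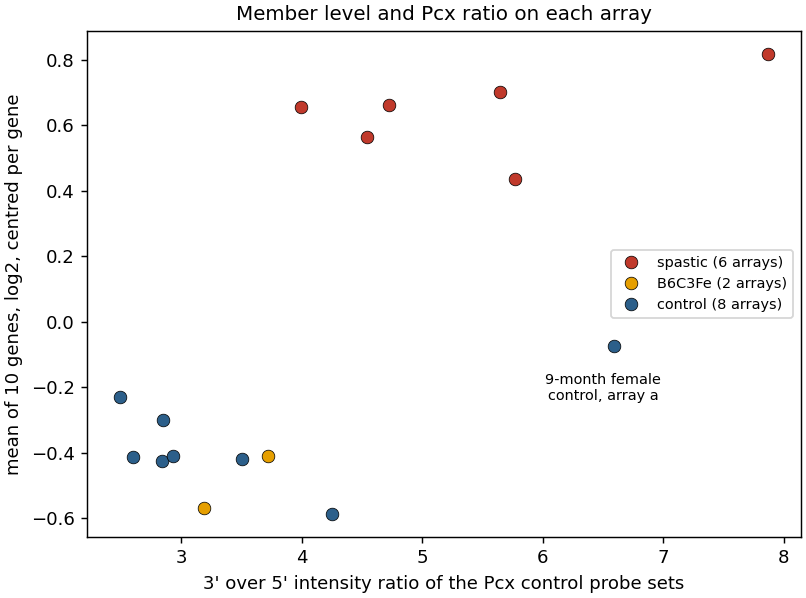
Mean of the 10 genes (log2 intensity, centred for each gene) against the 3' to 5' intensity ratio of the Pcx control probe sets, 1 point an array, in spastic, B6C3Fe and control groups. Spastic arrays lie at 0.44 or above and all others at -0.07 or below, and array a of the 9-month female controls has a ratio of 6.59.

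When the log2 Pcx ratio entered the model, 1 of the 10 genes was called in spastic minus control, Eng (0.99, SE 0.15, adjusted p = 0.0472), with 9 probe sets called in all. The log2 differences of Slc2a1 (1.31, adjusted p = 0.0679), Abcb1a (1.14, adjusted p = 0.0679), Vwf (0.96, adjusted p = 0.328), Cdh5 (0.61, adjusted p = 0.276), Ackr1 (0.55, adjusted p = 0.279) and Cldn5 (0.49, adjusted p = 0.32) were smaller than in the fit without the ratio, as was that of Eng. Those of Flt1 (1.09, adjusted p = 0.056), Pecam1 (0.95, adjusted p = 0.484) and Bsg (0.51, adjusted p = 0.122) were larger. The median over the 10 genes was 0.96.

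**Figure D5:**
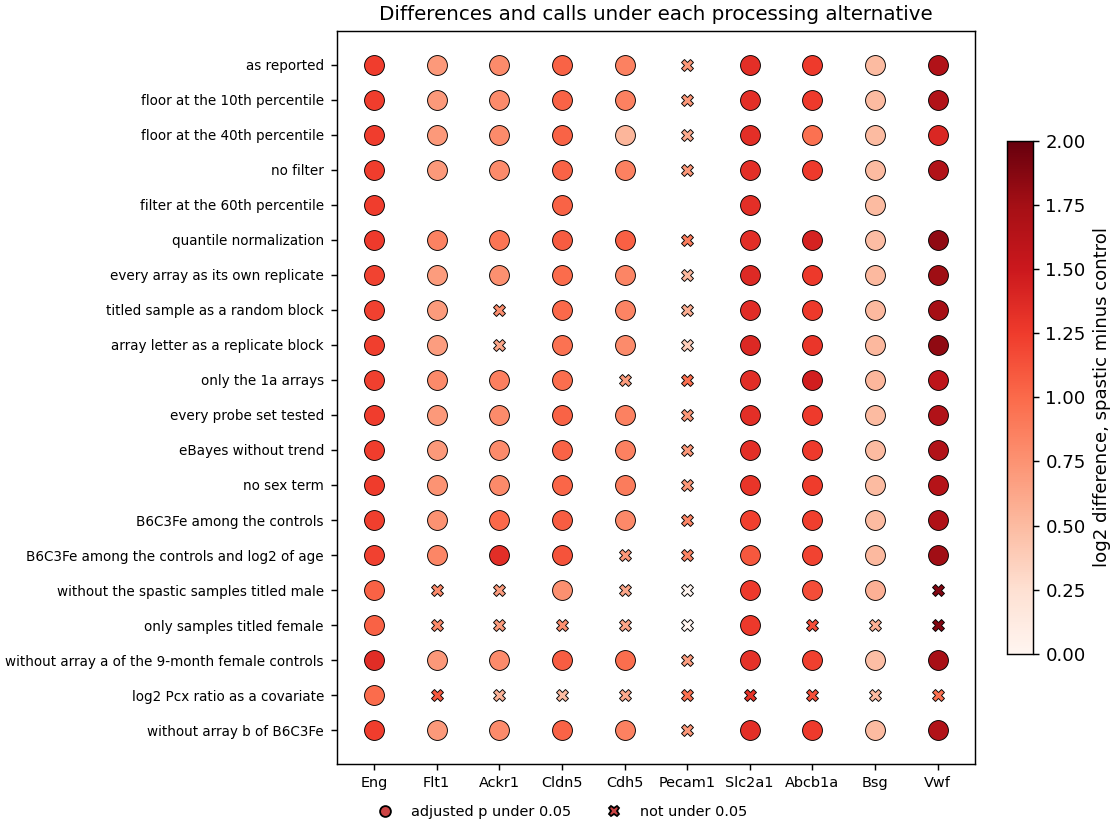
Log2 difference of spastic minus control (colour) for the 10 genes under each alternative processing, with circles for an adjusted p under 0.05 and crosses for others; blank cells were not tested. Eng is a circle in every line, Pecam1 in none, and the fits with only samples titled female and with the Pcx ratio hold the fewest circles.

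Genes of like pattern were sought among all genes tested, and the values are descriptions in which the difference between groups has a large share, since the arrays share groups, hybridisation and scaling. Over the 16 arrays the genes most correlated with Eng were Mab21l2 (r = 0.94) and Gnb1 (0.94), and Gnb1 was also nearest to Cdh5 (0.93), followed by Slc39a7 (0.87). For Abcb1a they were Prkaca (0.92) and Mab21l2 (0.91), for Slc2a1 Ergic3 (0.94) and Wdr6 (0.93), and for Bsg Pde1b (0.94) and Gabbr1 (0.94). For Cldn5 they were Mef2d (0.93) and Zfp36l2 (0.92), for Ackr1 Cltb (0.92) and Actn1 (0.90), for Vwf Pacsin1 (0.92) and Rex1bd (0.92), and for Flt1 Erdr1 (0.88) and Ank (0.85). Pecam1 had the weakest neighbours, Ankrd13a (0.80) and Slc5a6 (0.79). Over the 10 samples the mean of the 10 genes followed Dync1h1 (0.99), Safb (0.98), Extl3 (0.97), Adcy9 (0.96) and Mrpl2 (0.96) most closely.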

How the data were processed

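Each array's deposited values are linear intensities per probe set, and the software the authors used is not given in the sources at hand. The mean intensity after a 2% trim at both ends was 800.4 to 800.5 on every array, so the values were taken as scaled by the authors. Intensities under a floor at the 20th percentile (60.9, log2 5.93) were raised to that floor, log2 was taken, and 66 control probe sets were left out. Probe sets with a mean above the 40th percentile (7.62), the brightest for each symbol, were tested. Symbols came from GEO's platform annotation, and all 10 genes matched the RefSeq table by Entrez ID. Groups, sex and age were read from titles. In the titles of the 2-month spastic samples, the number before the age was read as the animal's. Arrays of 1 title, not identical in any pair (r = 0.93 to 0.98), were averaged to 10 samples, all in 1 model.

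Differences were fitted with limma 3.58.1 in R 4.3.3 (lmFit, eBayes with a trend) on group and titled sex, 2-sided, with Benjamini-Hochberg adjustment over 6427 probe sets. Promoters were searched in Python 3.11.15. The fits were tested on simulated data. The members, gene lists, tests and most alternatives were chosen with earlier results of these data known. All 10 genes are named in every comparison, with up to 4 called genes of each further list by smallest adjusted p, up to 2 with the smallest p where none was called, 2 genes of like pattern for each member and 5 for their mean, and Glrb and sex genes as label checks. Tek, Kdr, Vegfa, Nefm, Rgs5 and the genes without the filter were named after their values were seen. Alternatives were other floors and filters, quantile normalization, arrays kept apart or blocked, 1 array a title, every probe set, no trend, no sex term, other references, samples left out and the Pcx ratio as a covariate.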

Additional observations from a re-analysis of the deposited data

Results flagged for a closer look

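Of 22 groups of samples checked for 1 sample far from the rest, 2 had one, and chance gives about 1 in 20. Cldn5 in the 3+ month spastic sample had a log2 level of 11.05, above the other spastic samples at 9.96 to 10.20, with a gap of 0.783 of the group's range. Pecam1 in the 12-month male control had a log2 level of 6.62, below the other control samples at 8.23 to 8.40, with a gap of 0.903 of the range.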

How the results depend on the processing

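In spastic minus control, 9 of the 10 genes were called as reported (9.83% of all probe sets called higher), and 9 in every fit that left out 1 sample (5.15% to 9.85%). The count was 4 of 4 tested with the stricter filter on dim probe sets (13.7%) and 5 when both spastic samples titled male were left out (3%). It was 2 when the fit held samples titled female alone (1.37%), and 1 when the Pcx ratio was a covariate (0.0467%). It was 8, without Ackr1, with the titled sample as a random block (10.8%) and with the array letter, shared only as a name, as a replicate block (13%). It was also 8, without Cdh5, with only the first array of each title (5.79%) and in the fit with log2 age that pools B6C3Fe with the controls (5.76%). Eng was called in all 19 alternatives and 10 fits with a sample left out, and Pecam1 in none of its 18 and 10. The fits on part of the samples hold fewer of them and the stricter filter tests fewer genes; the causes of the other changes were not tested. In spastic minus B6C3Fe, the count was 2 as reported (1.42% of all probe sets called higher) and 1 to 2 with a sample left out, where 1 was reached without the sample titled sev (0.124%). It was 1 with the stricter filter (2%) and 1 without array b of B6C3Fe (2.04%), a fit added after seeing the data. It was 4 with quantile normalization (1.62% of all probe sets called higher). The count was 7 with every array as its own replicate (5.55%), with the titled sample as a random block (3.08%) and with the letter as a replicate block (4.84%), so calls over all probe sets rose there as well. It was 0 with the Pcx ratio (0.14%), with only the first array of each title (0.109%) and when both spastic samples titled male were left out (0.0934%). In B6C3Fe minus control it was 0, and 1 (Ackr1) with the lower floor; Ackr1 changed sign to 0.0831 with only the first arrays (adjusted p = 0.949). The age, sex and severity comparisons had 0 calls among the 10 genes in every alternative run. Background correction was not run, since the intensities are already summarised. Differences can be understated where values of the lower group were raised to the floor. An array under the floor can also enlarge a difference, as for Ackr1 in spastic minus B6C3Fe.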
